A study of Mus musculus with 6 samples.

Results

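This account covers 10 genes of immune checkpoints and costimulation, chosen by symbol from the 26608 gene symbols of a liver count table. They are the ligands Cd274, Pdcd1lg2, Cd80 and Cd86, the receptors Pdcd1, Ctla4, Lag3, Havcr2 and Tigit, and the transcription factor gene Tox. All 10 had a row. RNA was taken from the livers of 6 mice aged 6 weeks, 3 of the genotype LiK (LiK 1 to 3) and 3 of the genotype LiKM (LiKM 1 to 3), and the labels do not spell the genotypes out. From knowledge of the published study rather than the labels, hepatocytes of LiKM mice lack Mdm2, the ubiquitin ligase that keeps the tumour suppressor p53 low. A further allele that both genotypes carry is not described here. The alleles were directed to hepatocytes, while the members are known mainly as genes of immune cells. The comparison asks how transcripts of checkpoint and costimulation genes in the whole liver differ once Mdm2 is lost from those hepatocytes.

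T cells need a second signal beside antigen, given when CD80 or CD86 on an antigen-presenting cell binds CD28. CTLA-4 takes up the same ligands without giving that signal, and PD-1, LAG-3, TIM-3 (the product of Havcr2) and TIGIT are further receptors that restrain activated T cells. PD-L1 (Cd274) and PD-L2 (Pdcd1lg2) are the ligands of PD-1, and PD-L1 is also made by tissue cells under interferon gamma. TOX is a nuclear factor that supports the exhausted state of T cells under lasting antigen. In liver, Kupffer cells, dendritic cells and sinusoidal endothelium can carry such ligands.

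The libraries held 19909993 to 24874343 counts over 16847 to 17472 detected genes. All 7 hepatocyte markers were tested and abundant, with 1602333 to 2480240 Alb counts per library. Mdm2 had 597, 577 and 697 counts in the LiK mice and 2589, 2744 and 1255 in the LiKM mice, and its count sums all exons, so it checks neither label. A quasi-likelihood test in edgeR called 692 genes higher in LiKM and 110 lower among 13537 tested (adjusted p under 0.05, Benjamini-Hochberg). The median log2 fold change over all genes tested was −0.0034.

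Both PD-1 ligand genes and the receptor gene are shown first by the 250 bases before their RefSeq start, because Cd274 and Pdcd1lg2 lie next to each other on the RefSeq assembly yet only Cd274 passed the expression filter. The sequences come from RefSeq on build GRCm38.p6 and run from 5′ to 3′ on the gene's strand. They are Cd274 at chr19:29367188-29367437 (plus strand), Pdcd1lg2 at chr19:29410669-29410918 (plus strand) and Pdcd1 at chr1:94052554-94052803 (minus strand). Capitals mark a match to one of 4 motifs searched on both strands.
Cd274: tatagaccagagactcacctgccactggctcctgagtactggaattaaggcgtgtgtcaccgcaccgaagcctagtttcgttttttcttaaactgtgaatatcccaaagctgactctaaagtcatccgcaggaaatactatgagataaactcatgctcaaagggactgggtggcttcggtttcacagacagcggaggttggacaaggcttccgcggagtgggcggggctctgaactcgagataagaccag
Pdcd1lg2: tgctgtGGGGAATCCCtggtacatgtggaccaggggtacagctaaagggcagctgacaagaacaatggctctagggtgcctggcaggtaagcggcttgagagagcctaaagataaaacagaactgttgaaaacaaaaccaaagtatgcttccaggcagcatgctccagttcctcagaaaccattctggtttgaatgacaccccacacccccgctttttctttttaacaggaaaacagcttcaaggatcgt
Pdcd1: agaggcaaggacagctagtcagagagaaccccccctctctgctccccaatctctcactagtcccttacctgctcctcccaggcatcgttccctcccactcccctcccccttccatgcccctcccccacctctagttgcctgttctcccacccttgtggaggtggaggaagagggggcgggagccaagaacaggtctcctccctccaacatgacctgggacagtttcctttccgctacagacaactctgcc
The motifs were the interferon gamma element TTCNNNGAA, the interferon-stimulated element GAAANNGAAA, the NF-kB motif and the p53 half-site, and overlapping matches were allowed. Among all 32841 promoters of this length, 7.02%, 2.98%, 3.90% and 7.13% held at least 1 match, in that order. Of the 7 members with an entry in the promoter table, only Pdcd1lg2 held a match, to the NF-kB motif at 244 to 235 bases before the start. These windows of Cd274, Cd80, Pdcd1, Ctla4, Havcr2 and Tigit held none of these letters, which says nothing of the factors themselves.

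The members split into genes that rose in LiKM and genes that did not pass the test. Cd274, Cd80, Cd86 and Pdcd1 passed that threshold and were higher in LiKM, and no member was called lower by edgeR, DESeq2 or limma-voom, or had an unadjusted p under 0.05 (edgeR) with a lower level (0 of 7). Over all genes tested, 5.11% were called higher, 0.813% lower and 5.92% in either direction. Havcr2, Lag3 and Tox were tested and not called. Pdcd1lg2, Ctla4 and Tigit were too scarce for the expression filter, so 7 of the 10 members were tested. Pdcd1, Cd80 and Havcr2 passed that filter only through their LiKM counts and so had to be higher there, which means the 4 calls cannot be read against the background share. The remaining tested members, Cd274, Cd86, Lag3 and Tox, had at least 20 counts in each library, and Cd274 and Cd86 were the ones among them that rose. In whole tissue, more cells of a type and more RNA per cell cannot be told apart.

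**Figure D1:**
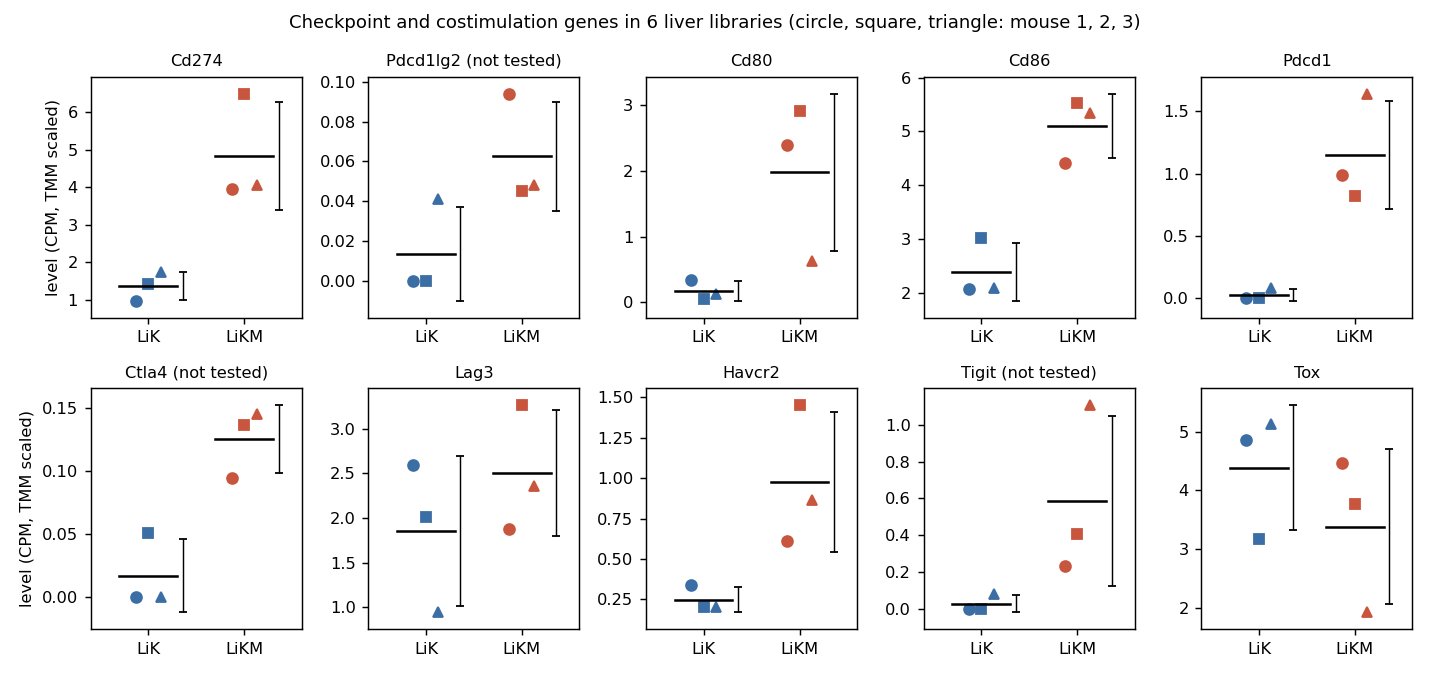
Level of each of the 10 members (vertical axis, CPM after TMM scaling, a separate linear scale per panel) in LiK (blue) and LiKM (red), with 1 point per mouse, a line at the mean and a bar of 1 SD beside it. The LiKM points of Cd274, Cd80, Cd86 and Pdcd1 all lie above the LiK points, while those of Lag3 and Tox overlap.

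Among the ligand genes, Cd274 had 20, 28 and 42 counts in the LiK mice and 84, 143 and 84 in the LiKM mice. LiKM 2 was the highest, and every LiKM library lay well above every LiK library. Cd274 rose from 1.37 ± 0.382 to 4.83 ± 1.44 CPM (counts relative to TMM-scaled library totals, mean ± SD, n = 3 each), with a log2 fold change of 1.81 (SE 0.32, edgeR's Benjamini-Hochberg adjusted p = 0.0259). Plgrkt, whose gene lies head to head with Cd274 and overlaps it on the RefSeq assembly, had 74, 68 and 105 counts in the LiK mice and 107, 100 and 129 in the LiKM mice. Its log2 fold change of 0.48 (SE 0.20) missed edgeR's threshold (Benjamini-Hochberg adjusted p = 0.218). Pdcd1lg2, the gene next to Cd274, had 0, 0 and 1 counts in the LiK mice and 2, 1 and 1 in the LiKM mice. The ratio of its summed counts was 4.06 with an exact 95% interval from 0.402 to 199.9, which covers counting error only, so no difference was detectable at this depth.

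Cd86 had 43, 60 and 51 counts in the LiK mice and 94, 122 and 111 in the LiKM mice, with the groups well apart and little spread within each. It rose from 2.39 ± 0.542 to 5.10 ± 0.60 CPM (n = 3 each), with a log2 fold change of 1.09 (SE 0.23, edgeR's Benjamini-Hochberg adjusted p = 0.0408). Cd80, which encodes the other B7 ligand of CD28 and CTLA-4, had 7, 1 and 3 counts in the LiK mice and 51, 64 and 13 in the LiKM mice. LiKM 3 lay far below LiKM 1 and LiKM 2 and still above every LiK library. Cd80 rose from 0.170 ± 0.149 to 1.98 ± 1.20 CPM (n = 3 each), with a log2 fold change of 3.50 (SE 0.76, edgeR's Benjamini-Hochberg adjusted p = 0.0443). Its call was lost in limma-voom (Benjamini-Hochberg adjusted p = 0.0879, from 0.000335 to 0.142 over its 13 alternatives), where 4.08% of all genes were called higher. Under a stricter filter of 1 CPM or more in 3 libraries, 4 members were tested and Cd86 and Cd274 rose, against 5.21% of all genes.

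Among the receptor genes, Pdcd1 had 0, 0 and 2 counts in the LiK mice and 21, 18 and 34 in the LiKM mice. The transcript was all but absent from the LiK libraries, and LiKM 3 was the highest. The level averaged 0.0274 ± 0.0474 CPM over the LiK mice and 1.15 ± 0.434 CPM over the LiKM mice (n = 3 each), and Pdcd1 rose (Benjamini-Hochberg adjusted p = 0.0213, edgeR). The fitted log2 fold change of 4.99 (SE 0.77) depends on the prior count, since LiK held 2 counts in all. The ratio of summed counts was 37.0, with an exact 95% interval from 9.89 to 311.6 for counting error only.

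Havcr2, whose product TIM-3 is carried by myeloid cells as well as T cells, had 7, 4 and 5 counts in the LiK mice and 13, 32 and 18 in the LiKM mice. The groups did not overlap, as was the case with LiKM above in 17.8% of all genes tested. The level averaged 0.248 ± 0.0773 CPM over the LiK mice and 0.977 ± 0.431 CPM over the LiKM mice (n = 3 each). The log2 fold change of 1.96 (SE 0.47) missed edgeR's threshold (Benjamini-Hochberg adjusted p = 0.0564), whereas the Wald test of DESeq2 and edgeR with library totals as the only scaling did call it, in tests that called 8.98% and 7.68% of all genes higher. Tigit had 0, 0 and 2 counts in the LiK mice and 5, 9 and 23 in the LiKM mice. LiKM 3 alone held most of the LiKM counts, and all 3 LiKM libraries lay above LiK. The ratio of its summed counts was 18.8, with an exact 95% interval from 4.84 to 160.8 for counting error only. Without the filter, Tigit missed edgeR's threshold (Benjamini-Hochberg adjusted p = 0.0648). Ctla4 had 0, 1 and 0 counts in the LiK mice and 2, 3 and 3 in the LiKM mice, and its edgeR Benjamini-Hochberg adjusted p without the filter was 0.291.

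Lag3, the receptor gene whose product binds MHC class II, was counted in every LiK library. It had 54, 40 and 23 counts in the LiK mice and 40, 72 and 49 in the LiKM mice, and the groups overlapped. The level averaged 1.85 ± 0.84 CPM over the LiK mice and 2.50 ± 0.704 CPM over the LiKM mice (n = 3 each), giving a log2 fold change of 0.44 (SE 0.40), which missed edgeR's threshold (Benjamini-Hochberg adjusted p = 0.562). The genes beside Lag3 on the RefSeq assembly are Cd4 and Ptms. Cd4, the co-receptor gene of helper T cells, had 103, 67 and 41 counts in the LiK mice and 41, 43 and 27 in the LiKM mice, and its log2 fold change of −0.94 (SE 0.41) missed edgeR's threshold (Benjamini-Hochberg adjusted p = 0.234). There were 52.4, 59.7 and 56.1 Lag3 counts per 100 Cd4 counts in LiK 1, LiK 2 and LiK 3, against 97.6, 167.4 and 181.5 in LiKM 1, LiKM 2 and LiKM 3. The ratio was thus nearly the same in the 3 LiK mice and higher in each LiKM mouse, at the smallest p that 3 mice against 3 allow (two-sided exact permutation p = 0.1), for a ratio chosen after the values were seen. Ptms had 9415 to 11522 counts in LiK and 7497 to 7793 in LiKM, and whether reads of a neighbour enter the Lag3 count was not tested.

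Tox had 101, 63 and 125 counts in the LiK mice and 95, 83 and 40 in the LiKM mice, with overlapping groups and the lowest value in LiKM 3. The level averaged 4.39 ± 1.06 CPM over the LiK mice and 3.39 ± 1.31 CPM over the LiKM mice (n = 3 each), giving a log2 fold change of −0.37 (SE 0.34), which missed edgeR's threshold (Benjamini-Hochberg adjusted p = 0.565). An antisense gene lies over part of Tox, and the strand setting of the counting is not given in the sources used here, so its reads cannot be told apart from those of Tox. Of the other genes of the family, Tox4 (−0.12) was not called, and Tox2 had 5, 15 and 10 counts in the LiK mice and 14, 13 and 271 in the LiKM mice. LiKM 3 alone set the Tox2 log2 fold change of 3.34, which missed edgeR's threshold (Benjamini-Hochberg adjusted p = 0.188) and was 0.40 without that library. Among the LiKM mice, LiKM 3 thus held the lowest level of Cd80 and Tox and the highest of Pdcd1, Tigit and Tox2.

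No fit with a library left out kept all the calls of the members. Without LiK 1, LiK 2 or LiKM 2, no member was called by edgeR, and the share of all genes called higher also fell, to 0.188%, 0.13% and 0.321%. In each of these fits 5 members had an unadjusted p under 0.05. How many of all genes did so was not counted for these fits, so that number has no background. With all 6 libraries, 5 members and 3032 of 13537 genes tested had such a p. Without LiK 3 the only called member was Pdcd1 (1.91% of all genes). Without LiKM 1, Pdcd1 and Cd274 were called (2.24%), and without LiKM 3, Pdcd1, Cd80 and Cd274 were called (3.83%). Cd86 was called in none of the 6 fits, with edgeR's Benjamini-Hochberg adjusted p between 0.0692 and 0.144, although its log2 fold change stayed between 1.00 and 1.29. For Cd274 the log2 fold change lay between 1.52 and 2.02, for Cd80 between 3.10 and 4.38 and for Pdcd1 between 4.51 and 7.59.

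**Figure D2:**
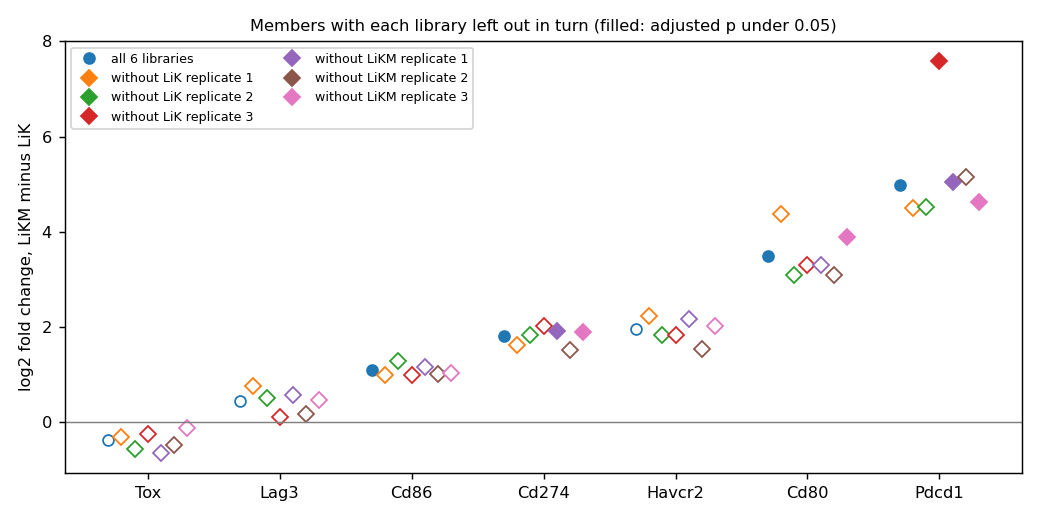
Log2 fold change of LiKM minus LiK (vertical axis) for the 7 tested members with all 6 libraries (circles) and with each library left out in turn (diamonds), filled where edgeR's adjusted p was under 0.05. Cd86 is filled only with all 6 libraries, and the Pdcd1 value without LiK 3 (7.59) stands far above the others because the LiK libraries left held 0 counts.

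Markers of T cells are given beside the receptor genes, of which Pdcd1 alone was called. Of 13 T cell markers, 9 rose and 0 fell, among them Cd8a (log2 fold change 4.10), Cd3g (3.45), Lck (3.02) and Thy1 (1.64), while Cd4 and Zap70 (0.12) were not called. Their summed level was 11.3 to 17.1 CPM in LiK and 22.5 to 28.1 CPM in LiKM, and none was at 0 in all LiK libraries. Most of the LiK sum was the uncalled genes Zap70, at 5.74 to 9.15 CPM, and Cd4, at 1.68 to 4.96 CPM. Of 10 natural killer and cytotoxic markers, 6 were tested and 4 rose, namely Il2rb (2.31), Prf1 (5.31), Nkg7 (4.15) and Gzmb (2.12), with summed levels of 2.31 to 3.22 CPM in LiK and 9.02 to 13.2 CPM in LiKM. Ncr1, the defining natural killer receptor gene, had 1 or 2 counts in every library. Of 5 regulatory T cell markers, 2 were tested and 0 were called, Lrrc32 (0.28) and Ikzf4 (−0.23), and Foxp3 had 0, 1 and 8 counts in the LiK mice and 3, 3 and 6 in the LiKM mice. 0 of the 2 had an unadjusted p under 0.05 in edgeR, and DESeq2 and limma-voom also called 0. The summed level of these 5 was 8.61 to 13.9 CPM in LiK and 11.2 to 14.7 CPM in LiKM. Most of it was Lrrc32, at 6.94 to 12.9 CPM in LiK and 8.92 to 13.9 CPM in LiKM. The sum thus mostly follows that gene and is no measure of regulatory T cells. With each library left out in turn, edgeR called 0 of the T cell markers without LiK 2, 1 without LiK 1 or LiKM 2, 3 without LiK 3 or LiKM 1 and 7 without LiKM 3. Of the natural killer and cytotoxic markers it called 0 without LiK 1, LiK 2 or LiKM 2 and 2 without LiK 3. The part of cell numbers in the rise of Pdcd1 was not tested.

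Set against the 4 CD3 complex genes Cd3d, Cd3e, Cd3g and Cd247, a measure chosen after the values were seen, the receptor genes and Tox gave these values. The CD3 counts summed to 15, 11 and 11 in LiK and 77, 108 and 114 in LiKM. Lag3 had 360.0, 363.6 and 209.1 counts per 100 CD3 counts in the LiK mice against 51.9, 66.7 and 43.0 in the LiKM mice, and Tox had 673.3, 572.7 and 1136 in LiK and 123.4, 76.8 and 35.1 in LiKM. Both ratios were lower in every LiKM mouse than in any LiK mouse (two-sided exact permutation p = 0.1 for each, the smallest that 3 against 3 allow). All 4 CD3 genes had been called higher in LiKM, while Lag3 and Tox had not been called, so lower ratios were all but fixed. In LiK, Lag3 and Tox each had more counts than the CD3 sum, and which cells held them was not tested. The ratios are therefore no measure of RNA per T cell. Havcr2 had 36.4 to 46.7 counts per 100 CD3 counts in LiK and 15.8 to 29.6 in LiKM (two-sided exact permutation p = 0.1). Pdcd1 had 0, 0 and 18.2 in LiK and 27.3, 16.7 and 29.8 in LiKM, and Tigit 0, 0 and 18.2 in LiK and 6.49, 8.33 and 20.2 in LiKM (two-sided exact permutation p = 0.2 and 0.5). With 2 counts of each gene in LiK, a difference in these last ratios was not detectable. Cd8a had 18.2 to 27.3 in LiK and 45.6 to 58.4 in LiKM (two-sided exact permutation p = 0.1). The log2 fold changes of the CD3 genes ran from 2.33 to 3.45. That of Cd8a (4.10) was larger and that of Havcr2 (1.96) smaller, so the directions of their ratios were all but fixed too. Cd8a itself had 4, 3 and 2 counts in the LiK mice.

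**Figure D3:**
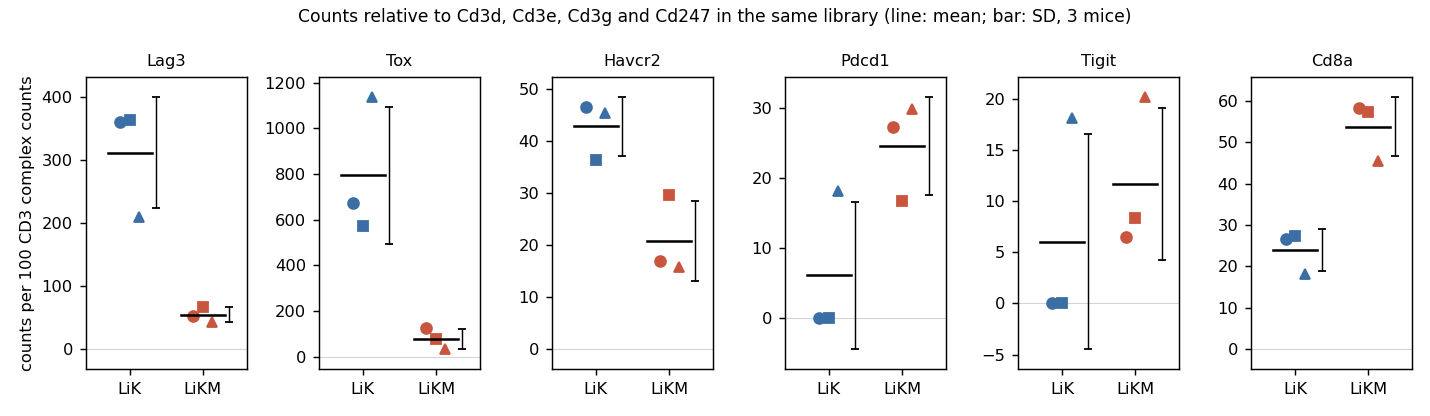
Counts of 5 members and of Cd8a per 100 summed counts of Cd3d, Cd3e, Cd3g and Cd247 in the same library (vertical axes, linear, a separate scale per panel), with 1 point per mouse, a line at the mean and a bar of 1 SD. The LiKM points of Lag3, Tox and Havcr2 lie below the LiK points and those of Cd8a above them, while those of Pdcd1 and Tigit overlap.

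Markers of cells that can carry the ligands were read beside Cd274, Cd80 and Cd86. Of 15 macrophage and monocyte markers, 9 rose and 0 fell, with Ptprc, the pan-leukocyte marker, at 1.30, the protease gene Ctss at 1.19, the adaptor gene Tyrobp at 0.93 and the lysozyme gene Lyz2 at 0.63. Their summed level was 231.1 to 281.6 CPM in LiK and 368.2 to 435.0 CPM in LiKM, and their median log2 fold change was 0.87. Of 10 dendritic cell markers, 2 rose, the integrin gene Itgax (1.92) and the migration receptor gene Ccr7 (1.94), with summed levels of 11.1 to 13.2 CPM in LiK and 16.0 to 21.6 CPM in LiKM. Of 7 B cell markers, 6 were tested and 0 were called, with Cd79a at −0.12, with summed levels of 3.27 to 9.52 CPM in LiK and 5.94 to 8.39 CPM in LiKM, and 0 of them passed in DESeq2, in limma-voom or at an unadjusted p under 0.05 in edgeR. With single libraries left out, edgeR called 5 macrophage and monocyte markers without LiKM 1 or LiKM 3, 3 without LiK 3, 1 without LiK 2 and 0 without LiK 1 or LiKM 2, and 0 dendritic cell markers in each of the 6 fits. Per 100 counts of the macrophage and monocyte list, Cd274 had 0.417, 0.50 and 0.745 counts in the LiK mice against 0.933, 1.49 and 1.10 in the LiKM mice, so the groups did not overlap (two-sided exact permutation p = 0.1). Cd80 had 0.146, 0.0179 and 0.0532 in LiK and 0.566, 0.668 and 0.170 in LiKM (two-sided exact permutation p = 0.1). This measure was chosen with earlier results of these data known. Cd274 (1.81) and Cd80 (3.50) had been called with larger rises than the list median, so higher ratios were all but fixed. Much of the list's sum was the uncalled genes Clec4f and Csf1r, on average 83.8 and 44.9 CPM in LiK. The ratios are therefore no measure of RNA per macrophage. Cd86 had 0.896, 1.07 and 0.905 in LiK and 1.04, 1.27 and 1.45 in LiKM, which overlapped (two-sided exact permutation p = 0.2). Havcr2 had 0.146, 0.0715 and 0.0887 in the LiK mice against 0.144, 0.334 and 0.236 in the LiKM mice, which also overlapped (two-sided exact permutation p = 0.2), and this mean was higher in LiKM, whereas the mean per 100 CD3 counts was lower.

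Of 6 stellate cell markers, Col1a1 rose (1.57) and the others were not called. All 6 had a positive log2 fold change (median 0.99) and an unadjusted p under 0.05 in edgeR, DESeq2 called 3 and limma-voom 1, and their summed level was 80.9 to 135.0 CPM in LiK and 202.1 to 244.6 CPM in LiKM. Of 7 hepatocyte markers, Serpina1c fell by 0.93 on the log2 scale. None of the 7 endothelial, 5 cholangiocyte and 4 tested neutrophil markers was called by edgeR at an adjusted p under 0.05, with Stab2 at 0.19, Ptprb at 0.11, Sox9 at 1.12, Spp1 at 0.30, Csf3r at 0.65 and S100a9 at 0.49. At an unadjusted p under 0.05 in edgeR there were 3 endothelial, 3 cholangiocyte and 0 neutrophil markers, DESeq2 called 2 cholangiocyte markers and 0 of the others, and limma-voom called 0. Col1a1 was called without LiK 3 or LiKM 3 alone, and the hepatocyte call held without LiK 3 alone.

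Among genes for the binding partners of the members, those of MHC class II rose and the rest did not pass the test. The class II genes H2-Aa, H2-Ab1 and H2-Eb1, whose products are ligands of LAG-3, rose by 2.12, 2.16 and 2.27 on the log2 scale. Each had edgeR Benjamini-Hochberg adjusted p between 0.00482 and 0.00568. H2-Eb1 had 288, 212 and 327 counts in the LiK mice and 1191, 1450 and 1262 in the LiKM mice, so every LiKM liver held over 3 times the highest LiK count. Fgl1, a further LAG-3 ligand secreted by hepatocytes, had 14797, 21276 and 5636 counts in the LiK mice and 8436, 7227 and 11548 in the LiKM mice, which overlapped (log2 fold change −0.65, edgeR's Benjamini-Hochberg adjusted p = 0.484). Lgals9, a ligand of TIM-3, lay at 0.21 and was not called. The TIGIT ligand genes Pvr (0.49) and Nectin2 (−0.30) were not called either. The 3 class II genes were called with any 1 library left out. Ceacam1, listed as a ligand gene of TIM-3, was not called with all libraries (−0.30) and was called lower without LiKM 3. Of 9 ligand genes, 3 rose and 6 did not pass, with a median of 0.21. Cd28, the activating receptor gene for CD80 and CD86, had 4, 2 and 7 counts in the LiK mice and 10, 12 and 10 in the LiKM mice, and its log2 fold change of 1.31 missed edgeR's threshold (Benjamini-Hochberg adjusted p = 0.137). The TIGIT competitors Cd226 and Cd96 had 1 to 10 counts per library and were not tested.

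Of 20 other inhibitory genes, 14 were tested, 6 rose and 0 fell, with a median log2 fold change of 1.14. Cd276, which encodes the B7 family protein B7-H3, rose from 99, 119 and 130 counts in LiK to 310, 347 and 241 in LiKM (log2 fold change 1.38, SE 0.17). Lgals3 (1.46), the inhibitory receptor gene of phagocytes Sirpa (0.92), the ectonucleotidase gene Entpd1 (1.15), the collagen receptor gene Lair1 (1.23) and Cd244a (2.29) also rose. The SIRPA ligand gene Cd47 lay at −0.04 and Timd4 at 0.62, and neither was called. Btla had 10 to 27 counts in LiK and 36 to 38 in LiKM and was not called (1.22). Of the 6 calls, edgeR kept 0 without LiK 1, LiK 2 or LiKM 2, 2 without LiK 3, 3 without LiKM 1 and 4 without LiKM 3.

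Of 22 genes listed as other costimulatory genes, 11 were tested, 6 rose and 0 fell, with a median log2 fold change of 1.83. Not all products of this list only activate T cells, since those of Cd5 and Cd6 can also restrain them. Icosl, the ligand gene of the ICOS receptor, had 42, 24 and 28 counts in the LiK mice and 119, 113 and 101 in the LiKM mice (log2 fold change 1.83, SE 0.27), whereas Icos had 15 to 17 counts in LiK and 14 to 32 in LiKM and was not called (0.42). Tnfrsf18, which encodes the receptor GITR, had 18, 35 and 34 counts in the LiK mice and 120, 220 and 76 in the LiKM mice (2.26, SE 0.43). Cd5 (2.77), Cd6 (2.19), Slamf7 (2.21) and Cd27 (1.94) rose as well, and Cd48 (0.75) was not called. Tnfrsf9, the gene of the receptor 4-1BB, had 0 counts in all LiK libraries and 6, 5 and 4 in LiKM. Set against a floor of 3 counts over the LiK group, its LiKM level was 5.07-fold higher. The exact interval of its ratio for counting error only, as used for Pdcd1, had a lower end of 3.64. With single libraries left out, edgeR called 3 genes of this list without LiKM 3, 2 without LiKM 1, 1 without LiK 1 or LiK 3 and 0 without LiK 2 or LiKM 2. Members of this list passed the filter in part through LiKM alone, which can raise the medians of this list, the inhibitory list and the marker lists.

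Genes that regulate Cd274 or mark interferon gamma responses gave 3 calls of 16 tested. The chemokine genes Cxcl9 and Cxcl10 were among them and rose by 1.95 and 2.33 on the log2 scale. Cxcl9 had 282, 97 and 274 counts in the LiK mice and 611, 1148 and 713 in the LiKM mice. Ifng itself had 4, 0 and 1 counts in the LiK mice and 3, 2 and 1 in the LiKM mice, too few to show a difference. Irf1 (0.94, edgeR's Benjamini-Hochberg adjusted p = 0.0682), Jak1 (0.06), Stat3 (0.39) and Cmtm6 (0.03), whose product keeps PD-L1 on the membrane, were not called. The list median was 0.57, and edgeR called 2 of its genes without LiKM 1 or LiKM 3, 1 without LiK 3 and 0 without LiK 1, LiK 2 or LiKM 2.

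Of 15 factors of T cell exhaustion and effector fate, 10 were tested and 1 rose, Nfatc2 (2.15), while Id2 (0.42) and Bach2 (−0.25) were not called, and the list median was 1.24. Without LiKM 1, edgeR called 2 other genes of this list, Ikzf2 and Runx3, and without each of the other libraries it called 0. Eomes, a factor of cytotoxic and exhausted T cells, was below the filter. It had 0 counts in every LiK library and 9, 12 and 17 in LiKM. Set against the floor of 3 counts over the LiK group, its LiKM level was 12.9-fold higher. The exact interval of its ratio for counting error only, as used for Pdcd1, had a lower end of 9.95. Tcf7 had 30, 52 and 68 counts in the LiK mice and 83, 108 and 141 in the LiKM mice and was not called (1.18, edgeR's Benjamini-Hochberg adjusted p = 0.0813).

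**Figure D4:**
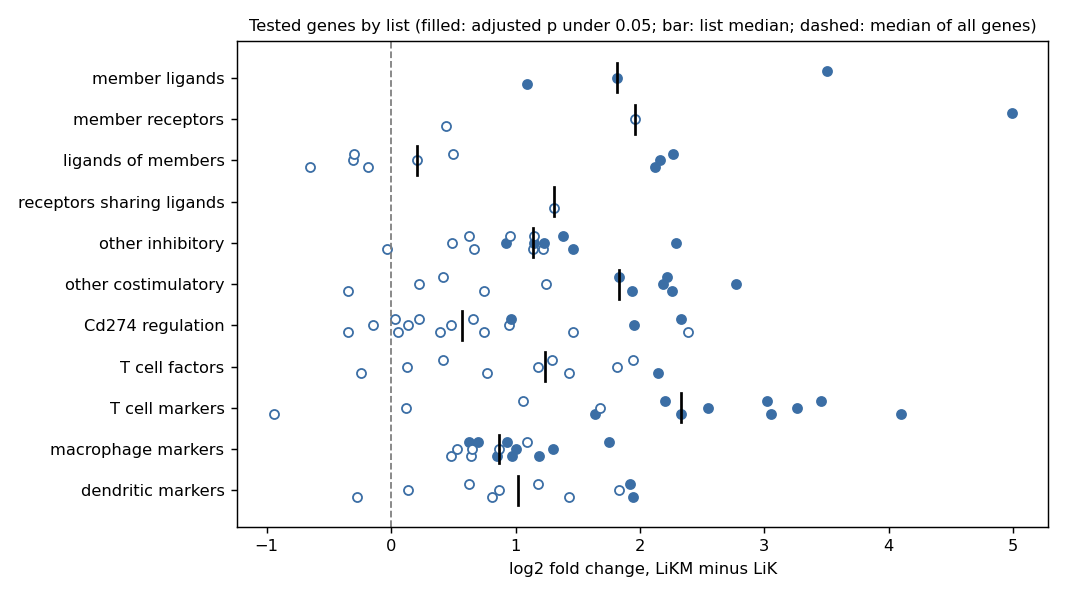
Log2 fold change of LiKM minus LiK (horizontal axis) by list, with 1 point per tested gene. Plotted are the member ligands and receptors, the partner and pathway lists without the Tox family, and 3 marker lists. The member Tox (−0.37) is not plotted. Points are filled where edgeR's adjusted p was under 0.05, with a bar at each list's median and a dashed line at the median of all genes tested. The filled points all lie to the right of 0, and the T cell marker median (2.33) lies farther right than the macrophage (0.87) and dendritic cell (1.02) medians.

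For each member, the genes closest in pattern over the 6 libraries were found by the root mean square difference of centred log2 CPM. They included immune genes and cell division genes, with both kinds near Cd274. The closest to Cd274 were Plk4, a kinase of centriole duplication (0.114), Tlr1 (0.137) and the CD3 gene Cd247 (0.148), and those to Cd86 included Akap2 (0.0981) and Dock10 (0.102). Those to Pdcd1 were Cdc20 (0.337), Esco2 (0.39) and Ms4a4b (0.391), and those to Havcr2 were Adap1 (0.147), Slc2a6 (0.184) and Cyfip2 (0.197). Cd80 lay closest to Robo3 (0.307), the replication helicase gene Mcm5 (0.354) and Uhrf1 (0.363), which share its low value in LiKM 3, with Robo3 at 83, 105 and 19 counts in LiKM. Lag3 lay closest to Flywch2 (0.158), Epha2 (0.171) and Tagap (0.178), and Tox to Ppat (0.105), Camk2b (0.114) and Hopx (0.125), none of which was called by edgeR at an adjusted p under 0.05.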

How the data were processed

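RNA of 6 livers was sequenced from libraries of a TruSeq stranded mRNA kit, per the labels' protocols. Reads were checked with FastQC 0.11.7 and counted per gene with featureCounts, per the submitters' processing notes. The authors deposited raw read counts per gene symbol, 1 column per mouse, with 0 columns left unused. Titles give each mouse its own code, so libraries were treated as separate animals. An aligner, a build, an annotation and a strand setting were not given in the sources used here.

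Genes were kept with the default filter of edgeR 4.0.16 (about 10 counts in 3 libraries, total of at least 15). After TMM scaling, the genotypes were compared with edgeR's quasi-likelihood test in R 4.3.3, with genotype as the only term, and p was adjusted by Benjamini-Hochberg over 13537 genes. Standard errors were derived from the coefficient and its F statistic. CPM values use the TMM library sizes. The members, lists and tests were chosen with earlier results of these data known. Of 192 list memberships, 190 matched a row, 4 of them through an older symbol in the RefSeq table for GRCm38.p6. Named from each list were up to 5 called genes with the smallest p (4 for cell types), the 2 most abundant uncalled genes (for cell types, in lists without a call), and the 3 genes closest in pattern to each tested member, except that a few items are not reported here. Further genes, picked with their values in view, were Mdm2, Alb, Plgrkt, Cd4, Ptms, Zap70, Ncr1, Foxp3, Pvr, Nectin2, Ceacam1, Cd226, Cd96, Cd244a, Btla, Cd27, Tnfrsf9, Ifng, Irf1, Cmtm6, Eomes, Tcf7 and the CD3 genes other than Cd3g and Cd247. In simulated counts for this comparison on 13537 genes, 44 of 100 genes with a 2-fold change and 89 of 100 with a 4-fold change were found again, and 7 of 13337 unchanged genes were called. Of those with a mean under 2 CPM, 1 of 17 and 14 of 21 were found. Alternatives are listed with their effects in the closing section (DESeq2 1.42.0 and limma 3.58.1 among them).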

Additional observations from a re-analysis of the deposited data

How the results depend on the processing

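In simulated counts, changes of 2-fold were found again in 44 of 100 genes, and in 1 of 17 with a mean under 2 CPM. An uncalled member is thus not shown to be unchanged. Of the tested members not called, Havcr2 lay under 2 CPM. Lag3 averaged 1.85 CPM in LiK and 2.50 CPM in LiKM, and Tox lay above that level. All 7 tested members kept the sign of their log2 fold change in each of the 14 alternatives in which they were tested, which for 5 of them was all but fixed, since their libraries do not overlap between the genotypes. The number of members called higher was 4 with all libraries, 2 with only genes of 1 CPM or more in 3 libraries kept, which leaves 4 members tested, and 0 to 3 with each library left out in turn. DESeq2's Wald test and edgeR on library totals each called 5. Over all genes, 692 were higher and 110 lower. Library totals as the only scaling gave 1039 higher and 63 lower and moved the median log2 fold change of all genes from −0.0034 to 0.16, DESeq2's Wald test gave 1214 higher and 377 lower, and with each library left out the counts ran from 18 to 525 higher and from 1 to 101 lower. With the replicate number as a block, 669 genes were higher and 166 lower and the same 4 members were called. The replicate numbers were not taken to pair the mice: deviations from the genotype mean correlated at 0.267, 0.00 and 0.127 for numbers 1, 2 and 3, and not every library correlated best with its own number. Among the other named genes, none of them called, some changed sign. On library totals Cd47 stood at 0.12, Tox4 at 0.043 and Cd79a at 0.027, and Cd79a stood at 0.0099 in limma-voom and 0.0044 under the block. With each library left out, the log2 fold change ran from −0.15 to 0.45 for Lgals9, −0.10 to 0.024 for Cd47, −0.017 to 0.12 for Jak1, −0.41 to 0.75 for Id2, −0.47 to 0.13 for Bach2, −1.71 to 0.17 for Ikzf4, −0.39 to 0.55 for Cd79a, −0.33 to 1.22 for S100a9, −0.039 to 1.15 for Spp1, −0.12 to 0.70 for Tagap, −0.56 to 0.054 for Ppat and −0.030 to 0.31 for Zap70. The cause was not tested.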
